A study of Mus musculus with 28 samples.

Results

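The mitosis set held 49 genes for mitotic kinases, spindle motors, kinetochore proteins and condensins, together with their regulators. The members were taken by name, and all 49 were among the 13519 genes with counts. Bulk RNA-seq was performed on mouse colon epithelium organoids from 7 donor mice of 4 genotypes on a C57BL/6N background. All donors carried the *Villin*CreERT2 transgene, whose promoter is active in intestinal epithelium, and the *Apc* flox/flox alleles. AC organoids carried no further allele and came from 1 donor. PAC organoids also carried *Trp53* LSL-R172H/+, BAC organoids carried *Braf* floxV600E/+, and BPAC organoids carried both, each with 2 donors. Each donor had 2 samples treated with ethanol (EtOH) and 2 treated with 3.5 µM 4-hydroxytamoxifen (4-HT). An EtOH and a 4-HT sample of the same donor and duplicate number are called a culture here, which gave 14 cultures named by donor letter and duplicate number. 4-HT activates the Cre recombinase, which deletes *Apc* and switches on BRAF V600E or p53 R172H where these alleles are present. Exposure lasted 24 hours and RNA was taken 3 days later, so all 4-HT samples had been exposed to the inducer of *Apc* recombination and all EtOH samples had not. Recombination was not measured in the counts.

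The 28 samples held between 20577276 and 40068718 counts. The 4-HT samples of duplicate 1 held 37438687 to 40068718 counts in BAC and BPAC, above the 26594188 to 30306835 counts of those in AC and PAC. With all samples thinned to the smallest total, 12, 27, 43 and 45 members rose in the genotypes taken in the order given, against 13, 30, 43 and 45 on all counts. Of these, 12, 27, 43 and 44 were called in both. Levels are given as CPM, counts scaled to library size after normalization by trimmed mean of M-values (TMM). The members were well counted, with a lowest count of 15 for any member in any sample. The 4-HT samples of PAC A1 and PAC B1 stood apart. They were the closest pair of all samples and held both *Xist* counts (834 and 636) and Y-linked counts, while in the other samples the smaller of both kinds of count was at most 8. Without both of these cultures no member passed in PAC by edgeR (24 had an unadjusted p under 0.05, the lowest adjusted p was 0.0111 and 48 of 49 had a fitted increase), so every rise of a member given for PAC below was called only with at least 1 of them included. With both left out PAC had 2 cultures, and 22 of 13519 genes rose in PAC. Among the targeted genes, *Trp53* in EtOH was at 51.4 to 66.0 CPM in PAC and BPAC and at 97.9 to 122 CPM in AC and BAC. In 4-HT it was at 148 to 227 CPM in PAC and BPAC and at 181 to 226 CPM in AC and BAC. Whole-gene counts of *Braf* and *Apc* do not show the recombined alleles, and they check nothing here. The 8 colon epithelium markers were expressed in every sample (summed level 15900 to 28500 CPM), and 3 of 10 fibroblast and immune markers had a row in the table, with a summed level of at most 7.98 CPM. The table held no gene with fewer than 116 counts over all samples, so the level of the other 7 is not known here.

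Entry into mitosis is driven by cyclin B bound to CDK1, which the phosphatase CDC25C activates. The spindle then captures chromosomes at their kinetochores, and the spindle checkpoint holds back the anaphase-promoting complex until every kinetochore is attached. Transcripts of these proteins rise together in late S and G2 phase. Their promoters are known for a cell cycle genes homology region (CHR) near the start site and for CCAAT boxes upstream, bound by the DREAM or MMB-FOXM1 complexes and by NF-Y, respectively. In colon crypts, cycling cells sit at the base and differentiated colonocytes no longer divide.

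The members shared promoter sequence that was not used to choose them. RefSeq windows on build GRCm38.p6, from 250 bases before to 50 bases after the start, were given for 41 of the 49 members (44 windows). The CHR was searched as TTTGAA or TTCGAA and the CCAAT box as CCAAT, each on both strands. Of the 44 member windows, 34 (77.3%) held a CHR match, against 13.8% of the 12921 windows of counted genes and 19.2% of all 32851 windows. A CCAAT match stood in 33 member windows (75.0%), against 37.8% and 37.4%. Both elements stood together in 30 member windows (68.2%), against 5.67% of windows of counted genes and 7.52% of all windows. The E2F words TTTCGCGC and TTTGGCGC, also on both strands, were present in 2 member windows (4.55%), against 1.45% and 0.813%. A word match is a description and not a bound site, and TTCGAA reads the same on both strands.

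**Figure D1:**
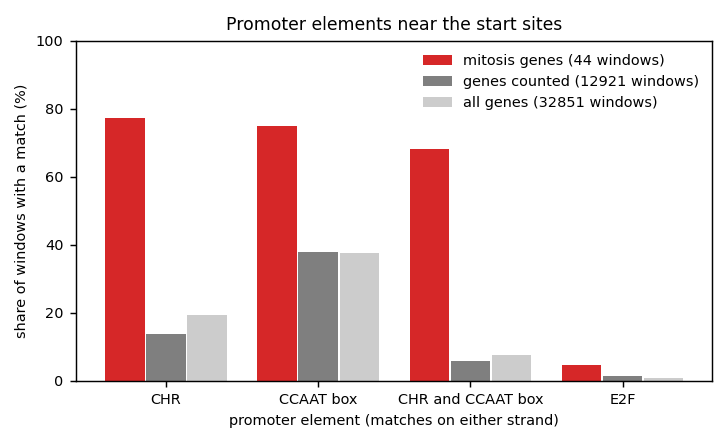
Share of promoter windows (vertical axis, percent) with at least 1 match to a CHR, a CCAAT box, both, or an E2F word, for windows of mitosis genes (red), of all counted genes (dark grey) and of all genes (light grey). CHR and CCAAT words together stood in 68.2% of the mitosis windows and in 5.67% of the windows of counted genes.

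Windows of 150 bases, from 110 before to 40 after the start, are shown for members whose values are given in full below. They were picked after their values were known, to show the usual layout and members without it. Capitals mark CHR and CCAAT matches, with CCAAT on the opposite strand written ATTGG.
Plk1, chr7:122159325-122159474, plus strand: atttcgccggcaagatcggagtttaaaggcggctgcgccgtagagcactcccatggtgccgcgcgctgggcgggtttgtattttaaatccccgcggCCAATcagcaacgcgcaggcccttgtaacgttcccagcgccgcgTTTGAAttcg
Aurka, chr2:172370531-172370680, minus strand: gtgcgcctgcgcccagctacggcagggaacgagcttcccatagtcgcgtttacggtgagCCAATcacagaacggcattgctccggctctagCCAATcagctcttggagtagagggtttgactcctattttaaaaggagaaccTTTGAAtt
Bub1, chr2:127831820-127831969, minus strand: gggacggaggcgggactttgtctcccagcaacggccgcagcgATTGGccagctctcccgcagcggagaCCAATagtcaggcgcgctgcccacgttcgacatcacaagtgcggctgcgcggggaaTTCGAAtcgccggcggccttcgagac
Cdc20, chr4:118437304-118437453, minus strand: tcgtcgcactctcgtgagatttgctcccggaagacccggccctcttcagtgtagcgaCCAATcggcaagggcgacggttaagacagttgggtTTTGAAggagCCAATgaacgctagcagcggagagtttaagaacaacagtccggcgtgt
Racgap1, chr15:99651617-99651766, minus strand: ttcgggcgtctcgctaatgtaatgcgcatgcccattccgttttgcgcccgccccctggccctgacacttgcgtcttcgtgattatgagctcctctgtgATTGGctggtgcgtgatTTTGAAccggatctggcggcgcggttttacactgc
Ccnb1, chr13:100786447-100786596, minus strand: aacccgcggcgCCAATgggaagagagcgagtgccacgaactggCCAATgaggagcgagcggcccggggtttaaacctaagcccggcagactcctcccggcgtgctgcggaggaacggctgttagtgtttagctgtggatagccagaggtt
Pttg1, chr11:43425942-43426091, minus strand: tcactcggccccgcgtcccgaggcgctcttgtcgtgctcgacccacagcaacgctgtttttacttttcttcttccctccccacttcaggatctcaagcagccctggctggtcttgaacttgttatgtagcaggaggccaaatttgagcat
In *Plk1*, *Aurka*, *Bub1*, *Cdc20* and *Racgap1* the CHR match lay between positions -18 and 32 relative to the start, and 1 or 2 CCAAT matches lay upstream of the start. *Ccnb1* held 2 CCAAT matches and no CHR match in the bases shown. *Pttg1* held neither there. Its RefSeq start lies 270 bases inside the gene as annotated by GENCODE, and that of *Ccnb1* lies 84 bases inside, so other start sites of these genes were not searched.

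4-HT raised 13 to 45 of the 49 mitosis genes, depending on the genotype, and the most were called in the genotypes with the *Braf* allele. By the edgeR quasi-likelihood test (Benjamini-Hochberg adjusted p under 0.01 over all genes), 13 of 49 members rose in AC, where 3.00% of all genes rose. In PAC 30 members rose (11.2% of all genes), in BAC 43 (20.3%) and in BPAC 45 (22.0%). No member fell in any genotype. AC had 2 cultures against 4 in each other genotype. The median log2 fold change of the members was 0.52 (AC), 0.43 (PAC), 0.86 (BAC) and 0.92 (BPAC), while that of all genes lay between -0.04 and 0.01. In these bulk samples, more cells in cycle and more RNA of these genes per cell cannot be told apart. The AC count was 27 with the replicate block (7.45% of all genes), which added *Cdk1*, *Plk1*, *Aurka*, *Aurkb*, *Bub1*, *Bub3* and *Cdc20* among others. It was 20 with DESeq2, and 0 by edgeR without either AC culture, where 27 (without A1) and 29 (without A2) members still had an unadjusted p under 0.05, and it was 8 without BAC B1 or PAC A1. The PAC count was 15 without PAC B1. It was 0 by edgeR without both cultures that stood apart, where the median was 0.31, and 22 with their 4-HT samples summed as 1.

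The change was compared within each culture, as the 4-HT sample minus the EtOH sample of that donor and duplicate. The mean change over the 49 members was 0.84 ± 0.09 (SD, n = 8) log2 units in cultures with the *Braf* allele, from 0.73 to 1.02. In cultures without it the mean was 0.44 ± 0.15 (n = 6), from 0.23 to 0.66, so the ranges did not overlap. PAC B1 had the highest mean change without *Braf* (0.66) and PAC A2 the lowest (0.23). Of the 49 members, 40 had a higher 4-HT than EtOH level in all 14 cultures, as had 18.5% of all genes. In all 4 genotypes 13 members rose, as did 2.66% of all genes. Another 13 rose in BAC and BPAC but in neither AC nor PAC, as did 9.19% of all genes, and 7 of these 13 passed in AC or PAC with the replicate block. By edgeR without the block *Pttg1*, *Plk4*, *Cenpf* and *Kif20b* passed in none, as did 48.0% of all genes. DESeq2 called *Plk4* and *Cenpf* in BPAC, and with library size alone *Plk4*, *Cenpf* and *Kif20b* passed in BPAC. With the replicate block *Cenpf* and *Kif20b* rose in BAC and BPAC, though not with the counts of each donor summed, and *Pttg1* and *Plk4* passed in none.

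**Figure D2:**
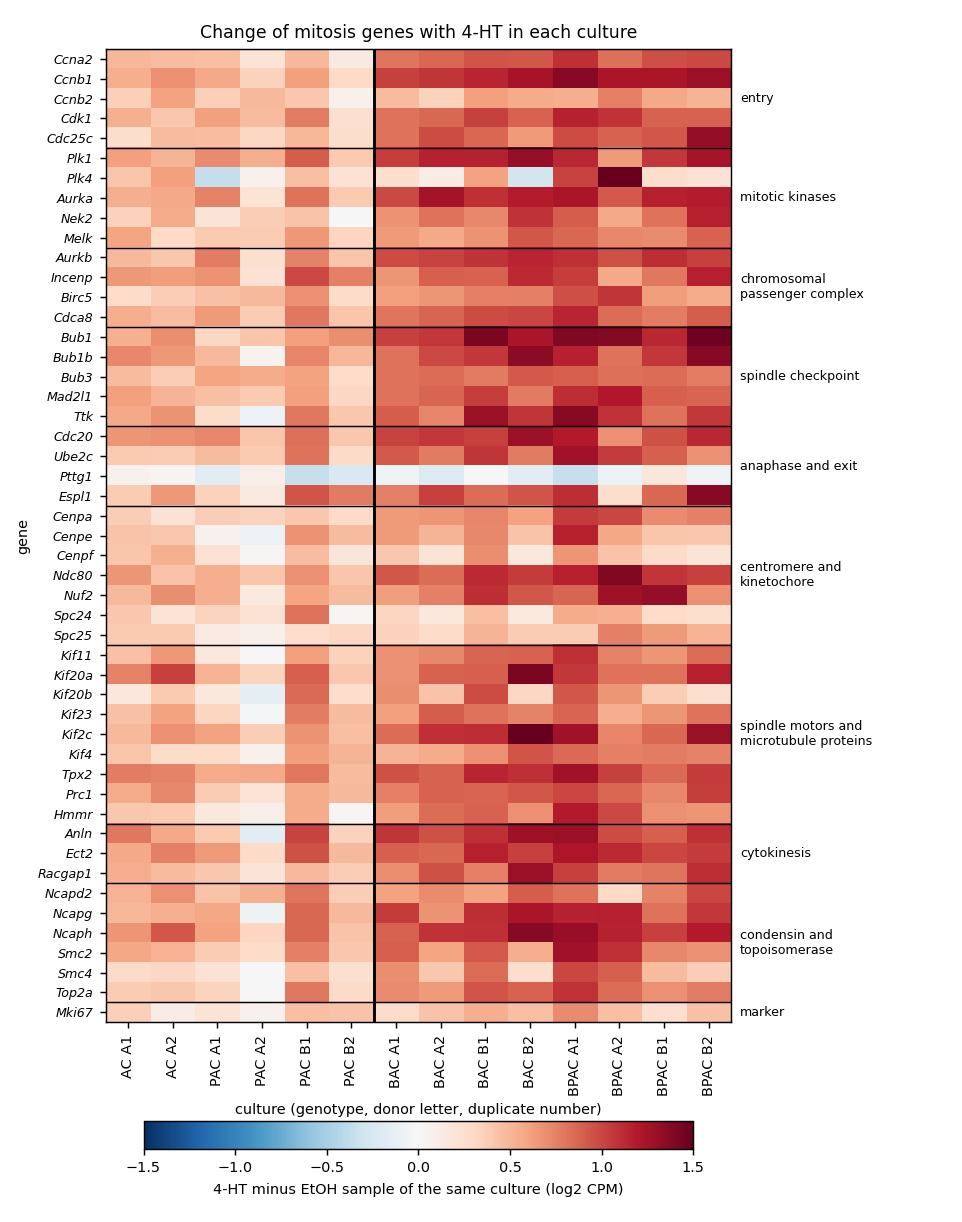
Change with 4-HT of each mitosis gene (rows, grouped by role) in each culture (columns), as log2 CPM of the 4-HT sample minus the EtOH sample, with the colour scale limited to -1.5 to 1.5. The vertical line separates the 6 cultures without the Braf allele from the 8 with it. Red deepens to the right of the line, where the mean over the rows is 0.73 to 1.02 against 0.23 to 0.66 on the left, and the row of Pttg1 stays pale.

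Among the genes of mitotic entry, all 5 rose in BAC and BPAC, 4 in PAC and 2 in AC. Cyclin A2, encoded by *Ccna2*, acts in S phase and G2 and was at 105, 121 and 140 CPM (lowest, median and highest) in EtOH and at 146, 153 and 173 CPM in 4-HT in the 6 cultures without *Braf*. With *Braf* it was at 128, 141 and 152 CPM in EtOH and at 251, 268 and 293 CPM in 4-HT in 8 cultures. The 4-HT levels of the *Braf* cultures all lay above every other sample. Cyclin B1, encoded by *Ccnb1* (ENSMUSG00000041431, chromosome 13 from 100778650 to 100786570, minus strand, GRCm38), was at 74.2 and 69.8 CPM in the EtOH samples and 107 and 112 CPM in the 4-HT samples of AC A1 and A2. In PAC it went from 89.5, 72.3, 83.7 and 82.8 CPM to 133, 92.4, 128 and 102 CPM in A1, A2, B1 and B2. In BAC it went from 103, 90, 93.0 and 80.3 CPM to 209, 189, 205 and 190 CPM, and in BPAC from 84.4, 83.0, 83.6 and 79.7 CPM to 218, 195, 195 and 194 CPM. In EtOH the AC levels lay below those of BAC and BPAC, and the levels pooled by *Braf* allele overlapped, whereas the lowest 4-HT level with *Braf* was 189 CPM and the highest without it 133 CPM. The log2 fold change of *Ccnb1* ranged from 0.61 ± 0.14 (SE, adjusted p = 0.00382) in AC and 0.47 ± 0.10 in PAC to 1.12 ± 0.10 in BAC and 1.28 ± 0.10 (adjusted p = 2.08e-10) in BPAC. *Cdk1*, the kinase of both cyclins, rose by 0.53 in PAC, 0.90 in BAC and 1.00 in BPAC. Its change in AC was 0.47 ± 0.15 (adjusted p = 0.0325). *Cdc25c*, whose product activates CDK1, was a weakly expressed member at 10.8 to 14.9 CPM in EtOH over all genotypes and was at 21.9 to 27.2 CPM in 4-HT with *Braf* and at 14.6 to 18.1 CPM without it. It rose by 0.39 in PAC, 0.82 in BAC and 1.03 in BPAC, with 0.37 ± 0.15 (adjusted p = 0.0812) in AC. *Ccnb2*, a second B-type cyclin, rose by 0.50 in BAC and 0.59 in BPAC.

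**Figure D3:**
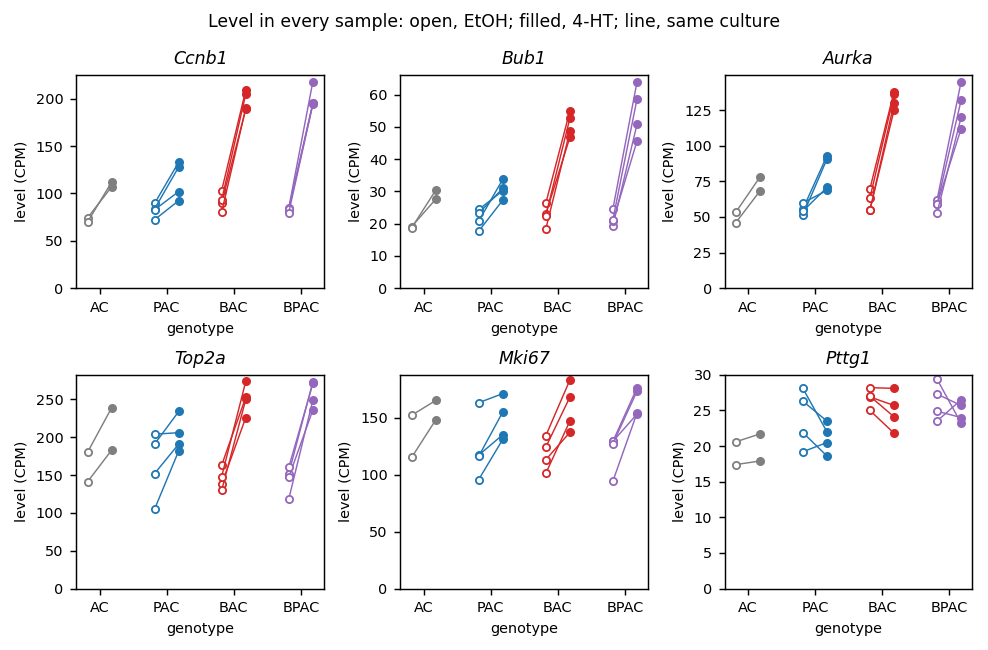
Level (CPM, vertical axes from 0) of 6 mitosis genes in every sample by genotype. Open points are EtOH samples, filled points 4-HT samples, and lines join samples of the same culture. For Ccnb1 the 4-HT samples reach 189 to 218 CPM in BAC and BPAC and 92.4 to 133 CPM in AC and PAC, and for Pttg1 EtOH and 4-HT points overlap in every genotype.

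Of the 5 mitotic kinase genes, 4 rose in BAC and BPAC, 3 in PAC and 1 in AC. *Plk1*, whose kinase acts from centrosome maturation to cytokinesis, was at 72.9, 83.3 and 89.9 CPM (lowest, median and highest) in EtOH and 106, 123 and 155 CPM in 4-HT without *Braf*. With *Braf* it was at 82.6, 105 and 116 CPM in EtOH and 175, 219 and 244 CPM in 4-HT, and the 4-HT ranges did not overlap. Its log2 fold change was 1.16 ± 0.13 in BAC and 1.02 ± 0.13 in BPAC, with 0.57 ± 0.18 (adjusted p = 0.0295) in AC and 0.65 ± 0.13 in PAC. *Aurka*, needed for centrosome separation and spindle poles, was at 46.0 to 69.7 CPM in EtOH over all genotypes. It was at 68.2, 74.4 and 93.0 CPM in 4-HT without *Braf* and at 112, 131 and 145 CPM with it. It rose by 1.12 in BAC, 1.13 in BPAC and 0.55 in PAC. *Nek2*, a centrosome kinase, rose by 0.81 and 0.87 in BAC and BPAC, and *Melk*, a kinase expressed in cycling cells, by 0.44 in AC and PAC, 0.70 in BAC and 0.79 in BPAC. *Plk4*, the kinase of centriole duplication, was the least abundant member with a mean of 1.24 CPM. Its change ran from -0.36 to 1.88 log2 units over the cultures, the highest in BPAC A2, and by edgeR it passed in no genotype (adjusted p = 0.0105 in BPAC), although it did in BPAC with DESeq2 and with library size alone.

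All 4 genes of the chromosomal passenger complex, which corrects faulty attachments and drives cytokinesis, rose in PAC, BAC and BPAC. In AC *Incenp*, the scaffold, rose (0.64 ± 0.16, adjusted p = 0.00761). *Aurkb*, the kinase of the complex, was at 53.9, 61.0 and 61.4 CPM in EtOH and 71.2, 82.8 and 105 CPM in 4-HT without *Braf*. With *Braf* it went from 55.2, 64.2 and 72.7 CPM to 121, 132 and 148 CPM, with no overlap of the 4-HT levels. *Birc5*, encoding survivin and the most abundant gene of the complex, was at 62.1, 70.9 and 80.7 CPM in EtOH without *Braf* and 55.0, 81.3 and 86.3 CPM with it. It was at 80.2, 93.5 and 109 CPM in 4-HT without *Braf* and at 116, 130 and 149 CPM with it, and rose by 0.47 in PAC, 0.70 in BAC and 0.79 in BPAC. *Cdca8*, encoding borealin, rose by 0.57, 0.91 and 0.92 in the same genotypes.

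The 5 spindle checkpoint genes all rose in BAC and BPAC, 4 in PAC and 2 in AC. *Bub1* (ENSMUSG00000027379, chromosome 2 from 127801122 to 127831865, minus strand), a kinetochore kinase, was at 19.1 and 18.7 CPM in EtOH and 27.6 and 30.4 CPM in 4-HT in AC A1 and A2. In PAC it went from 24.4, 23.2, 17.7 and 20.8 CPM to 30.2, 31.0, 27.3 and 33.8 CPM in A1, A2, B1 and B2. In BAC it went from 23.0, 26.3, 18.3 and 22.5 CPM to 46.8, 55.0, 48.7 and 52.7 CPM, and in BPAC from 19.3, 24.5, 20.7 and 21.2 CPM to 50.8, 63.9, 45.6 and 58.6 CPM. Its 4-HT levels with *Braf* (45.6 to 63.9 CPM) all lay above those without it (27.3 to 33.8 CPM). The log2 fold change ran from 0.62 ± 0.17 (adjusted p = 0.0137) in AC and 0.51 ± 0.12 in PAC to 1.17 ± 0.12 in BAC and 1.35 ± 0.12 in BPAC, the largest fitted change of any member. *Mad2l1*, encoding the inhibitor of CDC20, was at 35.4 to 46.9 CPM in EtOH over all genotypes. It was at 53.0, 56.6 and 64.1 CPM in 4-HT without *Braf* and 79.0, 81.5 and 86.4 CPM with it. It rose in every genotype, by 0.56 ± 0.10 (AC), 0.44 ± 0.07 (PAC), 0.88 ± 0.07 (BAC) and 1.02 ± 0.07 (BPAC). *Bub3*, the most abundant member of the group, was at 92.4, 110 and 113 CPM in EtOH without *Braf* and 96.1, 114 and 123 CPM with it. It was at 132, 145 and 171 CPM in 4-HT without *Braf* and 171, 199 and 229 CPM with it, so these levels met. It rose by 0.51 in PAC and by 0.84 in BAC and BPAC. *Bub1b* rose by 0.68 and 0.45 in AC and PAC and by 1.04 and 1.08 in BAC and BPAC, and *Ttk*, the checkpoint kinase MPS1, by 0.99 and 1.07 in BAC and BPAC.

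Of the 4 genes of anaphase and mitotic exit, 3 rose in PAC, BAC and BPAC. By edgeR 0 passed in AC, where 3 had an unadjusted p under 0.05, limma-voom called 0 and DESeq2 and the replicate block each called 1 (*Cdc20*, 0.68). *Cdc20*, the activator of the anaphase-promoting complex, was at 85.3, 97.4 and 105 CPM in EtOH and 129, 141 and 177 CPM in 4-HT without *Braf*, and went from 89.7, 116 and 134 CPM to 182, 234 and 278 CPM with it. It had the highest level per length of the members (81.5 CPM per kb of exon) and rose by 0.61 in PAC, 1.09 in BAC and 1.01 in BPAC. *Ube2c*, the ubiquitin-conjugating enzyme of the complex, was at 96.3 to 129 CPM in EtOH over all genotypes. It was at 138, 151 and 171 CPM in 4-HT without *Braf* and 198, 223 and 241 CPM with it, and rose by 0.50, 0.89 and 0.97. *Espl1*, encoding separase, rose by 0.55, 0.89 and 0.86. *Pttg1* (ENSMUSG00000020415, chromosome 11 from 43420250 to 43426251, minus strand), encoding securin, the inhibitor of separase, did not pass in any genotype. In AC it was at 20.6 and 17.4 CPM in EtOH and 21.7 and 17.9 CPM in 4-HT. In PAC it was at 26.3, 19.2, 28.1 and 21.9 CPM in EtOH and 23.5, 20.5, 22.0 and 18.6 CPM in 4-HT, in BAC at 26.9, 25, 28.2 and 27.0 against 25.7, 21.8, 28.1 and 24.1 CPM, and in BPAC at 29.4, 27.3, 23.5 and 24.9 against 23.2, 25.7, 26.5 and 24.0 CPM. The EtOH and 4-HT levels overlapped, and the log2 fold changes were 0.06 ± 0.16 (AC), -0.17 ± 0.11 (PAC), -0.10 ± 0.11 (BAC) and -0.08 ± 0.11 (BPAC), with the signs in PAC, BAC and BPAC reversed under scaling by library size alone. It was the 1 member with a fitted decrease in these 3 genotypes.

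The 7 centromere and kinetochore genes had median changes of 0.56 in BAC and 0.61 in BPAC, below the medians of all members. In BAC 5 rose, in BPAC 6, in PAC 2 and in AC none, where by edgeR 4 had an unadjusted p under 0.05, DESeq2 called 2 (*Ndc80* and *Nuf2*), limma-voom 0 and the replicate block 1 (*Ndc80*). *Cenpa*, the histone H3 variant of centromeres, was at 61.0, 67.9 and 80.3 CPM in EtOH and 72.1, 86.9 and 104 CPM in 4-HT without *Braf*. With *Braf* it went from 57.1, 74.8 and 81.6 CPM to 112, 125 and 135 CPM, and the 4-HT levels did not overlap. The NDC80 complex, which binds microtubules at the kinetochore, has 4 subunits here. *Ndc80* rose by 0.52 in PAC, 0.99 in BAC and 1.16 in BPAC. *Nuf2* rose by 0.44, 0.85 and 1.03 in the same genotypes. *Spc25* rose by 0.38 in BAC and 0.57 in BPAC, and *Spc24* rose by 0.39 ± 0.12 in BPAC, with 0.28 ± 0.11 (adjusted p = 0.0451) in BAC. *Cenpe*, a kinetochore motor, rose by 0.56 and 0.61 in BAC and BPAC. *Cenpf*, the member with the most exon sequence (15433 bases), was at 63.0, 67.8 and 74.2 CPM in 4-HT with *Braf* and at 66.8, 72.2 and 95.9 CPM without it, and passed in no genotype by edgeR (0.39 ± 0.13, adjusted p = 0.0147 in BPAC). It passed in BPAC with DESeq2, in all 4 genotypes with library size alone and, with the replicate block, in BAC (adjusted p = 0.00293) and BPAC (adjusted p = 0.0015).

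Of the 9 spindle motor and microtubule genes, 8 rose in BAC and BPAC, 6 in PAC and 4 in AC. *Tpx2*, the activator of Aurora A on spindle microtubules, rose in every genotype, by 0.75 ± 0.11 and 0.59 ± 0.07 in AC and PAC and by 1.02 ± 0.07 and 1.05 ± 0.07 in BAC and BPAC. *Prc1*, which bundles the microtubules of the central spindle, was at 56.6, 60.4 and 67.8 CPM in EtOH and 78.6, 86.9 and 93.5 CPM in 4-HT without *Braf*. With *Braf* it went from 59.1, 63.4 and 70.1 CPM to 114, 117 and 125 CPM, with no overlap. *Kif20a*, a motor of cytokinesis, had the largest fitted change of any member in AC (0.88 ± 0.21, adjusted p = 0.00692) and rose by 0.93 in BAC and 0.96 in BPAC. *Kif2c*, a microtubule depolymerase, rose by 1.11 and 1.04, *Kif11*, the motor that separates spindle poles, by 0.79 and 0.84, and *Hmmr* by 0.76 and 0.88 in BAC and BPAC. The chromokinesin gene *Kif4* rose by 0.67 and 0.78, and *Kif23*, the motor of centralspindlin, by 0.77 and 0.72. The rise of *Kif23* in AC (0.53, adjusted p = 0.00999) did not pass with the replicate block. *Kif20b* had changes of 0.58 ± 0.21 (adjusted p = 0.0213) in BAC and 0.53 ± 0.21 (adjusted p = 0.0314) in BPAC, and passed in both with the replicate block (adjusted p = 0.00143 and 0.00278).

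The 3 cytokinesis genes rose in BAC and BPAC. *Racgap1*, the partner of KIF23, was at 61.8, 74.2 and 80.4 CPM in EtOH and 84.4, 95.7 and 107 CPM in 4-HT without *Braf*. With *Braf* it went from 61.4, 77.3 and 95.4 CPM to 133, 148 and 159 CPM, and the 4-HT ranges did not overlap. *Ect2*, the exchange factor that activates RhoA at the furrow, rose by 0.67 and 0.57 in AC and PAC and by 0.98 and 1.10 in BAC and BPAC. *Anln*, the scaffold anillin, rose by 1.09 in BAC and 1.07 in BPAC, and its change without *Braf* ran from -0.17 to 1.01 over the cultures.

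All 6 condensin and topoisomerase genes rose in BAC and BPAC. *Top2a*, which disentangles DNA and was the most abundant member (mean 193 CPM), was at 105, 166 and 204 CPM in EtOH and 182, 199 and 239 CPM in 4-HT without *Braf*. With *Braf* it went from 118, 147 and 163 CPM to 226, 252 and 274 CPM, so that the 4-HT levels of the 2 groups overlapped. It rose by 0.79 ± 0.15 in BAC and 0.84 ± 0.15 in BPAC. The condensin I subunits *Ncaph*, *Ncapg* and *Ncapd2* rose by 1.09, 1.00 and 0.70 in BAC and by 1.17, 1.05 and 0.71 in BPAC. *Ncaph* and *Ncapd2* also rose in AC (0.81 and 0.61) and PAC (0.55 and 0.53), where they were the 2 of 6 called, against 3 and 5 with the replicate block. *Smc2* and *Smc4*, the ATPases shared by both condensins, rose by 0.73 and 0.53 in BAC and by 0.92 and 0.67 in BPAC.

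*Mki67*, whose product coats mitotic chromosomes and is used as a marker of cycling cells, rose in BPAC, and with the replicate block also in PAC (adjusted p = 0.0085) and BAC (adjusted p = 0.000263). It passed in no genotype with the counts of each donor summed. It was at 95.6, 116 and 163 CPM in EtOH and 131, 152 and 171 CPM in 4-HT without *Braf*, and at 94.1, 126 and 134 CPM and 137, 161 and 183 CPM with it. EtOH and 4-HT levels overlapped without *Braf*. The log2 fold change was 0.23 ± 0.20 (AC), 0.27 ± 0.14 (PAC), 0.43 ± 0.14 (BAC, adjusted p = 0.0138) and 0.45 ± 0.14 (BPAC, adjusted p = 0.00883).

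The effect of the *Braf* allele on the response to 4-HT was taken as the mean change over both genotypes that carry it (BAC, BPAC) less the mean over both that do not (AC, PAC). The change was larger with *Braf* for 14 of 49 members, and smaller for none, where it was larger for 3.05% of all genes. The median difference was 0.41 over the members and -0.01 over all genes. The differences were 0.70 ± 0.13 for *Bub1* (SE, adjusted p = 0.000961), 0.66 ± 0.11 for *Ccnb1* (adjusted p = 0.000236) and 0.53 ± 0.08 for *Ccna2* (adjusted p = 8.12e-05). Among the kinases *Aurka* differed by 0.57 ± 0.12, *Aurkb* by 0.55 ± 0.12 and *Ttk* by 0.56 ± 0.13. *Cdc25c* (0.55), *Ndc80* (0.54), *Ube2c* (0.49), *Racgap1* (0.48), *Mad2l1* (0.45), *Ncaph* (0.45), *Tpx2* (0.36) and *Prc1* (0.35) also passed, so that each role but the marker *Mki67* had at least 1. For 18 members every *Braf* culture changed more than every culture without the allele, as did 4.90% of all genes. *Ccnb1* was among them, with 1.02 to 1.37 in the *Braf* cultures and 0.30 to 0.68 in the others, as was *Bub1*, with 1.03 to 1.46 and 0.31 to 0.70. The differences of *Spc24* (0.00 ± 0.13), *Cenpf* (0.03 ± 0.15) and *Pttg1* (-0.03 ± 0.13) lay within 1 SE of 0, and their signs varied with the processing.

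**Figure D4:**
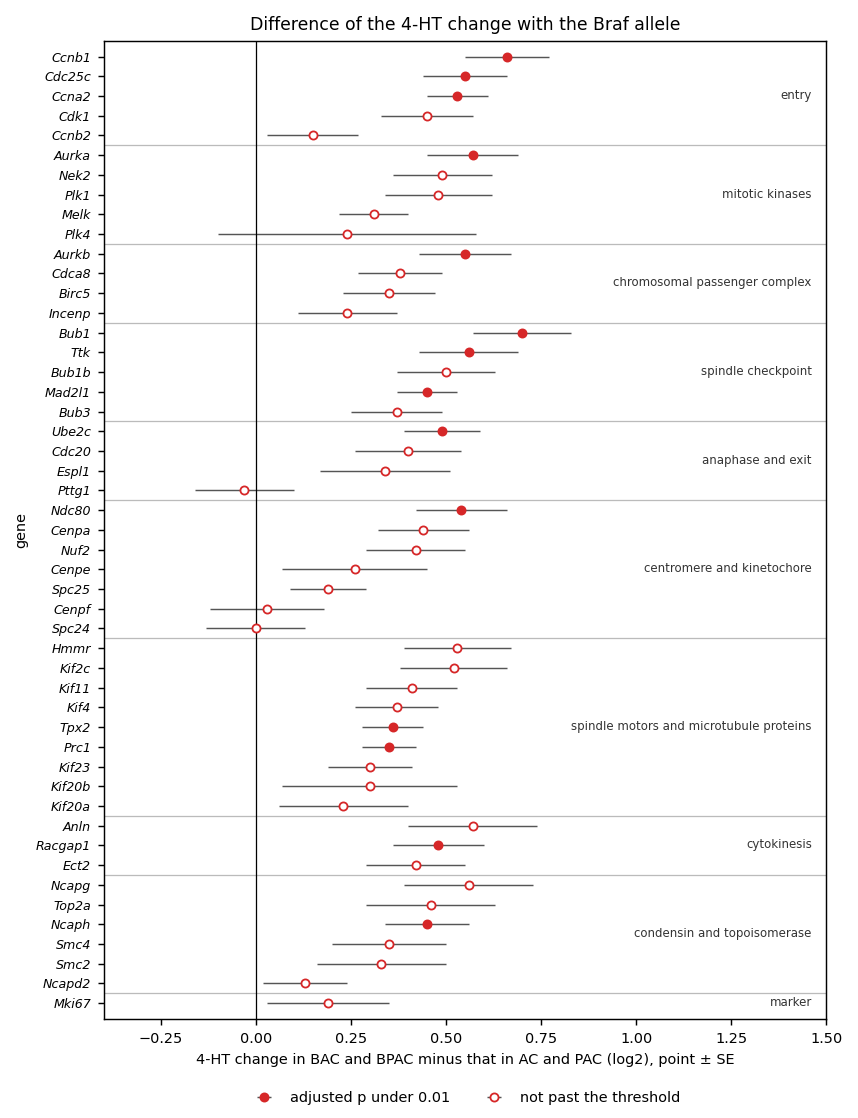
Difference of the 4-HT change (log2, horizontal axis) by Braf allele (with minus without) for each mitosis gene (rows, grouped by role), with bars of 1 standard error. Filled points are the 14 genes with an adjusted p under 0.01. All but Pttg1 (-0.03) lie at or to the right of 0, and the largest differences are those of Bub1 (0.70) and Ccnb1 (0.66).

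The number of members past this threshold depended on the AC cultures, which come from 1 donor and are 1 sample per treatment once donors are summed. It was 3 without AC A1 (*Ccnb1*, *Ccna2* and *Mad2l1*) and 4 without AC A2 (*Ccnb1*, *Bub1*, *Ccna2* and *Prc1*), 9 without BAC B1, BPAC A1 or PAC B2, and 22 without PAC B1. It was 18 without both PAC cultures that stood apart, 25 with DESeq2 and 8 with library size alone. With the replicate block 29 members passed, including all 14 and also *Plk1*, *Cdk1*, *Bub3*, *Cdc20*, *Cenpa* and *Top2a*, where 6.51% of all genes did. With the counts of each donor summed, which makes the mouse the replicate, 12 passed, of which 7 were among the 14. The medians moved less, to 0.39 and 0.41 without AC A1 and A2. In duplicate 1 alone the median difference was 0.38 and in duplicate 2 alone 0.46, with 33 and 32 members at an unadjusted p under 0.05 and 2 (*Aurkb* and *Ccnb1*) and 0 past the threshold.

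For the *Trp53* allele the response was compared in the same way. No member passed for the mean change over PAC and BPAC less the mean over the other two genotypes (0.00740% of all genes were higher), and none had an unadjusted p under 0.05 by edgeR, limma-voom or DESeq2. None passed with the replicate block. The differences ran from -0.18 to 0.13 log2 units with a median of -0.01. The test does not show that the responses were the same.

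The starting levels were also compared. In EtOH no member passed by edgeR between genotypes with and without *Braf* (0.0222% of all genes were higher with it). An unadjusted p under 0.05 was held by 10 of the 49 members and by 2319 of all 13519 genes. DESeq2 called *Ccna2* alone and limma-voom called 0. The median difference was 0.09, with 0.32 for *Pttg1*, 0.29 for *Plk1*, 0.28 for *Ccnb2* and *Cdc20* and 0.27 ± 0.05 for *Ccna2* (adjusted p = 0.0542). In 4-HT 38 members were higher with *Braf* (15.6% of all genes), with a median difference of 0.49 against 0.00 over all genes. The difference was 0.84 ± 0.08 for *Ccnb1*, 0.82 ± 0.10 for *Bub1* and 0.79 ± 0.06 for *Ccna2*. The 11 that did not pass included *Mki67* (0.08), *Top2a* (0.29), *Smc2* (0.17), *Smc4* (0.20) and *Cenpf* (-0.19).

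Exon length went with the EtOH difference between genotypes. Across the 49 members, the difference in EtOH with the *Braf* allele correlated with log exon length at Pearson r = -0.62 and Spearman rho = -0.62, against r = -0.01 over 13479 genes, while the 4-HT changes in the 4 genotypes gave r between -0.16 and 0.06 and rho between -0.31 (PAC) and -0.03 (AC). The difference with *Braf* in 4-HT levels gave r = -0.36 and rho = -0.35, and that in the 4-HT change r = 0.02 and rho = -0.08. The members share samples and libraries and are not independent points. The 10 longest members (7461 to 15433 bases of exon, among them *Cenpf*, *Mki67*, *Top2a* and *Cenpe*) had a median EtOH difference of 0.04 and the 10 shortest (1531 to 3188 bases, among them *Ccnb2*, *Cdc20*, *Pttg1* and *Plk1*) of 0.15. The part of RNA quality or read coverage in this was not tested.

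Of 87 other mitosis genes, 6 rose in AC (22 with the replicate block) and 32 in PAC, against 61 in BAC and 71 in BPAC, where 3.00%, 11.2%, 20.3% and 22.0% of all genes rose, with medians of 0.36, 0.32, 0.60 and 0.68, and 1 fell in each of PAC (*Lin54*), BAC and BPAC (*Anapc13*). Among the regulators of mitotic promoters, *Mybl2* rose by 0.87 in PAC, 1.61 in BAC and 1.57 in BPAC. Its change was larger with *Braf* by 0.76 (adjusted p = 0.00265). *Foxm1* rose by 0.49, 0.68 and 0.82 in the same genotypes, with a difference of 0.30 (adjusted p = 0.185). The change was larger with *Braf* for 12 of the 87 (3.05% of all genes) and for 22 with the replicate block, including *Trip13* (0.81), which remodels MAD2, the cohesin protector *Sgo1* (0.65) and the anaphase-promoting complex genes *Cdc16* (0.58) and *Cdc23* (0.56).

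Of 25 S phase genes, which act in DNA replication, 11 rose in AC (20 with the replicate block), 22 each in PAC and BAC, and 23 in BPAC, with medians of 0.76, 0.77, 1.09 and 1.14. The change was larger with *Braf* for 2 of them (5 with the block), *Rrm2* (0.72) and *Rrm1* (0.47), both subunits of ribonucleotide reductase. The helicase genes *Mcm2* to *Mcm7* had differences of 0.27 to 0.40 (adjusted p from 0.0695 to 0.366). Of 12 brakes of the cycle, 2 fell in AC (4.25% of all genes fell), 4 each in PAC (12.2%) and BAC (21.5%), and 6 in BPAC (23.0%), with 4, 5, 7 and 8 falling under the replicate block, and *Rbl1* rose in BAC. *Cdkn2b*, an inhibitor of CDK4 and CDK6, fell in every genotype, with log2 fold changes of -1.64 (AC), -1.22 (PAC), -1.62 (BAC) and -1.80 (BPAC). *Cdkn1a*, encoding p21, fell in PAC (-1.01) and BPAC (-0.87). The change differed by *Trp53* allele for none of the 12 brakes. These differences ran from -0.34 to 0.57, none with an unadjusted p under 0.05 by edgeR. The mean change of the brakes was -0.42 with and without *Braf*.

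Markers of cell types also changed with 4-HT, and only the differentiated colonocyte list separated the cultures by *Braf* allele. Of 10 differentiated colonocyte markers, 4 fell in AC and 7 in PAC, against 9 in BAC and 10 in BPAC, to be read against the same shares of all genes. Under the replicate block 7, 9, 10 and 10 fell. These markers rose in no genotype. Their summed level was 7110 to 10100 CPM in EtOH and 3690 to 4380 CPM in 4-HT without *Braf*. With *Braf* it was 7390 to 13200 CPM in EtOH and 2440 to 4490 CPM in 4-HT, so the levels overlapped in both treatments. The fall was larger with *Braf* for *Sis* (-2.52) and *Ces1g* (-2.41), where 3.55% of all genes had a lower difference, and for 4 markers with the block (7.48%). The mean change of these markers was -2.69 ± 0.56 (SD, n = 8) with *Braf* and -1.44 ± 0.35 (n = 6) without it, with no overlap between cultures. The 4 crypt stem markers *Lgr5*, *Ascl2*, *Axin2* and *Smoc2* all rose in PAC (11.2% of all genes) and BPAC (22.0%), 3 in BAC (20.3%) and 2 in AC (3.00%). Their mean changes were 1.54 ± 0.29 with *Braf* and 1.59 ± 0.50 without it. Of 6 goblet markers 2 rose and 2 fell in each of BAC and BPAC, where 20.3% and 22.0% of all genes rose and 21.5% and 23.0% fell. Of the 8 general colon epithelium markers 2 fell in PAC (12.2% of all genes) and 4 each in BAC (21.5%) and BPAC (23.0%), with 6 in BPAC under the block. Their mean changes were -0.34 ± 0.18 with *Braf* and -0.21 ± 0.12 without it. Without both PAC cultures that stood apart, in PAC none of the other mitosis genes, S phase genes or colonocyte markers passed by edgeR (23, 18 and 7 had an unadjusted p under 0.05), 1 brake fell and 1 stem marker rose. The part of these shifts in the change of the mitosis genes was not tested.

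**Figure D5:**
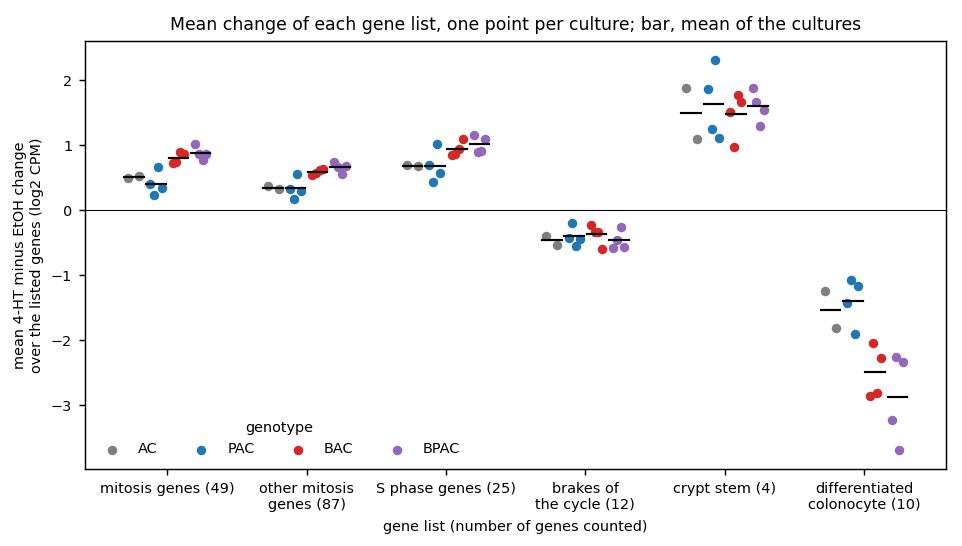
Mean change with 4-HT (log2 CPM, vertical axis) over the genes of 6 lists, with 1 point per culture, coloured by genotype, and a bar at the mean of each genotype. Mitosis genes separate the BAC and BPAC cultures (0.73 to 1.02) from AC and PAC (0.23 to 0.66), differentiated colonocyte markers separate them downward (-3.69 to -2.04 against -1.91 to -1.08), and crypt stem markers and brakes of the cycle overlap.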

How the data were processed

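The authors deposited raw read counts per gene for 28 organoid samples, whole numbers without normalization, and the reads behind them were aligned to GRCm38 with STAR 2.5.2b after Trimmomatic 0.39, per the labels. The counting program, its annotation and strand setting are not given in the sources used here, so a gene and an overlapping antisense gene cannot be told apart. Symbols came from GENCODE for 13479 of 13519 genes. Of the 14 cultures, 1 sample label had no duplicate number and was taken as duplicate 1. The 49 members, the other gene lists and the markers were chosen with earlier results of these data known. Values are given for the most abundant member of each role, for the members that passed for the *Braf* allele with the smallest p, and, chosen after their values were seen, for *Pttg1*, *Plk4*, *Cenpf*, *Cdc20* and *Aurkb*.

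Counts were normalized by TMM and tested with edgeR 4.0.16 (quasi-likelihood) on the 8 groups of genotype and treatment with no covariate, in R 4.3.3, with Benjamini-Hochberg adjustment over all genes and a threshold of 0.01. Limma-voom (limma 3.58.1) and the DESeq2 1.42.0 Wald test were alternatives. Changes per culture used log2 CPM with a prior count of 2. Samples of the same donor come from 1 mouse. EtOH and 4-HT samples with the same donor and duplicate number were paired, and the replicate block is the paired fit. Their deviations from the group means correlated at r = 0.245 to 0.532 over the 14 pairs. Samples of unlike duplicate number were not compared, so the part of the shared mouse in these correlations is not known. Since cultures of 1 donor are not separate animals, p-values partly measure the spread between cultures. Counts of the PAC A1 and B1 4-HT samples differed more than counting error alone gives (median squared difference 0.811 of the expected variance, against 0.455 for pure counting error and 1.73 to 14 in 37 other pairs), and they were also summed as 1 sample. The edgeR step was also tested on simulated counts for 13519 genes, of which 200 were changed. For AC 2% of changes of 0.5 log2 units and 34% of 1 were recovered, for BAC 16% and 63%, and for the difference with the *Braf* allele 7% and 56%, with 0 false calls. The simulated samples were drawn independently, without shared mice or cultures. Fewer genes were changed than were called in the data, so these rates do not carry over to it. The counts carry no molecular identifiers. Promoter windows are from RefSeq. Other alternatives were DESeq2 size factors, library size alone, filters on low counts, summed donors, each culture left out, each duplicate alone, and, chosen after seeing the data, the summed PAC samples and thinning to the smallest total. Figures were drawn with matplotlib 3.10.9 in Python 3.11.15.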

Additional observations from a re-analysis of the deposited data

Results flagged for a closer look

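In culture PAC B2 the 4-HT change of *Bub3* (0.27) lay far from that of the other 3 PAC cultures (0.56 to 0.60). It was the 1 such sample among 147 groups of cultures looked at, and chance alone marks about 1 in 20 groups.

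By edgeR, the 4-HT change of 14 members differed by *Braf* allele. The differences, with minus without the allele in log2 units, were 0.53 for *Ccna2*, 0.66 for *Ccnb1*, 0.55 for *Cdc25c*, 0.57 for *Aurka*, 0.55 for *Aurkb*, 0.70 for *Bub1*, 0.45 for *Mad2l1*, 0.56 for *Ttk*, 0.49 for *Ube2c*, 0.54 for *Ndc80*, 0.36 for *Tpx2*, 0.35 for *Prc1*, 0.48 for *Racgap1* and 0.45 for *Ncaph*. All 14 also passed with limma-voom, DESeq2 and the replicate block. Not all of them did when the counts of each donor were summed, which leaves 1 AC sample per treatment.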

How the results depend on the processing

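The counts of members that rose in BAC and BPAC stayed within 1.5 times under every alternative run. In AC the 13 calls became 20 with DESeq2, 35 with library size alone, 27 with the replicate block, 7 with donors summed, 30 at a threshold of 0.05, 4 and 0 in duplicates 1 and 2 alone, and 0 to 19 with single cultures left out. In PAC the 30 calls became 0 without both duplicate 1 cultures and in duplicate 2 alone, and 15 to 32 with single cultures left out, the lowest without PAC B1. The 14 calls for the *Braf* allele became 25 with DESeq2, 8 with library size alone, 29 with the replicate block, 30 at 0.05, 2 and 0 in duplicates 1 and 2 alone, and 3 to 22 with single cultures left out. Leaving out AC A1 or A2, using 1 duplicate or summing each donor leaves 1 AC sample per treatment, which is assumed to vary like the other groups. The replicate block moved no other of these counts by over 1.5 times. In EtOH DESeq2 called 1 member. Library size alone moved the median change of all genes to between 0.13 and 0.23 in the 4 genotypes, and the mean change over the members to 1.03 with and 0.664 without *Braf*, the members' excess over all genes moving by at most 0.01. The sign varied for members near 0. With library size alone *Pttg1* was at 0.05 in PAC, 0.065 in BAC and 0.138 in BPAC, *Cenpf* at -0.006 and *Spc24* at -0.032 for the *Braf* difference. For that difference *Pttg1* was at 0.014 with donors summed and 0.038 in duplicate 1, *Cenpf* at -0.012 and *Spc24* at -0.037 with more than 10 CPM required, *Cenpf* at -0.061 in duplicate 2 and *Spc24* at -0.082 in duplicate 1. With single cultures left out the ranges were -0.074 to 0.023 (*Pttg1*), -0.026 to 0.066 (*Cenpf*) and -0.047 to 0.078 (*Spc24*) for this difference, -0.161 to 0.01 for *Pttg1* in BPAC, -0.023 to 0.223 for *Plk4* in PAC and -0.05 to 0.228 for *Kif20b* in 4-HT. In duplicate 2 alone *Plk4* was at -0.12 in BAC, and in 4-HT with minus without *Braf* *Plk4* was at -0.067, *Cenpe* at -0.021 and *Kif20b* at -0.079. *Kif20b* was at -0.009 there without both PAC duplicate 1 cultures and *Spc24* at -0.011 with the 10 CPM filter. The causes were not tested.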
